A study of Arabidopsis thaliana with 42 samples.

Results

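10 genes of leaf yellowing were followed across the 42 libraries, taken by locus from a set proposed with earlier results of these data known: 5 enzymes of chlorophyll breakdown (NYC1, NYE1, NYE2, PPH and PAO) and 5 senescence-associated genes (SAG12, SAG13, SAG21, SAG29 and DIN2). They are 10 of the 24843 loci counted. Of the 10, 9 passed the filter on low counts and were tested, and SAG29 did not. SAG12 passed only through its counts in infected sid2 and wrky70 leaves, so its levels are given as a description and no p of its own is printed. DIN2 and NYE2 passed only through their counts in infected leaves. Their p for Pma against mock are therefore printed as a description and lend no support. DIN2 passed only through genotypes in which it was high. Its p between genotypes in Pma leaves are thus a description as well, and its calls lend counts of members no support. Counts of members over the 9 tested genes describe those genes and support nothing further.

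Chlorophyll is taken apart in a fixed order when a leaf ages or is stressed. Chlorophyll b is first reduced by NYC1, STAY-GREEN proteins (NYE1, NYE2) remove the central magnesium from chlorophyll a, pheophytinase (PPH) cuts off the phytol tail, and pheophorbide a oxygenase (PAO) opens the ring. The senescence-associated genes serve as markers of how far ageing has gone: SAG12, a cysteine protease, is a late marker tied to natural ageing, whereas SAG13 and SAG21 also respond to stress and pathogens.

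The plants were Arabidopsis thaliana Col-0, 30 days old, of 7 genotypes: wild type, the single mutants cbp60a, wrky70 and sid2, the double mutants chp60g sard1 (the labels' spelling, read here as cbp60g sard1) and cml46 cml47, and the triple mutant cbp60a cbp60g sard1. CBP60a, CBP60g and SARD1 belong to a family of calmodulin-binding proteins, the cml genes encode calmodulin-like proteins, WRKY70 is a transcription factor, and SID2 encodes isochorismate synthase, which supplies salicylic acid. Leaves 6 to 8 were infiltrated with 5 mM magnesium sulfate (mock) or with Pseudomonas syringae pv. maculicola ES4326 (Pma) in the same solution at an optical density of 0.0002, and were taken at 24 h. Each of 3 independent experiments gave 1 sample of 2 leaves for every genotype and treatment, so each of the 14 groups had n = 3 libraries. The labels do not give the mutant alleles, and all mutants were compared with the same wild type libraries.

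Libraries held 919335 to 2691069 counts (median 1588053.5), each count being a read placed at the 3′ end of a transcript by Smart-3SEQ. Levels are CPM, the counts divided by the library's effective size and set to a common scale, with the size adjusted by the trimmed mean of M-values, and because 1 transcript gives 1 tag region they are compared here between libraries and not between genes. In Pma leaves the transcripts of the genes named in 5 of the mutants were below every wild type library. CBP60A was at 15.4 to 23.4 CPM in cbp60a against 30.6 to 58.1 in wild type, SARD1 at 2.79 to 20.8 in chp60g sard1 against 216.8 to 277.6, WRKY70 at 113.2 to 225.8 in wrky70 against 1651.9 to 1984.0, and ICS1, the SID2 gene, at 0.714 to 2.95 in sid2 against 392.3 to 772.9. A tag that lies downstream of an altered stretch checks no allele, and the cml46 cml47 pair was not checked here. The summed level of 4 mesophyll markers was 16341.8 to 35784.4 CPM in mock and 1218.5 to 10649.3 CPM in Pma leaves, while 5 phloem markers summed to 394.9 to 683.1 and 510.6 to 1082.5 CPM and 4 guard cell markers to 32.7 to 81.8 and 58.1 to 156.4 CPM. Epidermal markers summed to 127.2 to 365.4 CPM in mock and 10.2 to 77.1 CPM in Pma leaves, and root markers to 22.6 CPM at most. In these bulk leaves fewer cells of a type and less RNA per cell cannot be told apart.

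The members lie on 4 chromosomes in the RefSeq annotation of TAIR10.1. NYC1 (AT4G13250) occupies bases 7684156 to 7687006 of chromosome 4 on the minus strand, NYE1 (AT4G22920) bases 12016420 to 12018643 of the same chromosome on the minus strand, and NYE2 (AT4G11910) bases 7156150 to 7158047 on the plus strand. PPH (AT5G13800) is at 4451733 to 4454813 of chromosome 5, minus strand, and PAO (AT3G44880) at 16383595 to 16386344 of chromosome 3, plus strand. SAG12 (AT5G45890) is at 18613239 to 18614963 of chromosome 5, plus strand, and SAG29 (AT5G13170) at 4181042 to 4183354 of chromosome 5, minus strand. SAG13 (AT2G29350) is at 12600914 to 12602556 of chromosome 2, plus strand, SAG21 (AT4G02380) at 1046042 to 1047105 of chromosome 4, minus strand, and DIN2 (AT3G60140) at 22216540 to 22220824 of chromosome 3, plus strand.

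The 250 bases before the annotated start are shown for 4 members that stand for the patterns described below: NYC1 and NYE2 for the chlorophyll enzymes, SAG21 for the stress-responsive markers, and DIN2 for the gene that differed most between genotypes. Each is written 5′ to 3′ on the gene's own strand, from RefSeq TAIR10.1. Capitals mark TTGAC, the core bound by WRKY factors, CACGTG and ACGTG, cores bound by bHLH and bZIP factors, and TGACG, the core bound by TGA factors, on either strand.
SAG21, chr4:1047106-1047355, minus strand: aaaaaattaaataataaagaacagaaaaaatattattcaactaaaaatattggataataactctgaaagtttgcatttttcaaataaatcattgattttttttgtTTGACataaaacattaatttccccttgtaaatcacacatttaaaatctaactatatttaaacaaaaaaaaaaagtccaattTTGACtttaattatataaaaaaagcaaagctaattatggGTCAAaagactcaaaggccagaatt
NYC1, chr4:7687007-7687256, minus strand: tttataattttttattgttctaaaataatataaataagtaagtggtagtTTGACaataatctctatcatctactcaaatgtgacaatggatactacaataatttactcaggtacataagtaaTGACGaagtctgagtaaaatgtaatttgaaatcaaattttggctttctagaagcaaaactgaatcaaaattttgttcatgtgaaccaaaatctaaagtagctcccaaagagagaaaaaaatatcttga
NYE2, chr4:7155900-7156149, plus strand: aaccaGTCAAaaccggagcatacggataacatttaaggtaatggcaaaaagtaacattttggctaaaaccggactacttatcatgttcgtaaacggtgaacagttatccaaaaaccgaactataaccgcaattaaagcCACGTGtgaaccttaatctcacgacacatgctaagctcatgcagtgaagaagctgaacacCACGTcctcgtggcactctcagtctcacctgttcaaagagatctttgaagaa
DIN2, chr3:22216290-22216539, plus strand: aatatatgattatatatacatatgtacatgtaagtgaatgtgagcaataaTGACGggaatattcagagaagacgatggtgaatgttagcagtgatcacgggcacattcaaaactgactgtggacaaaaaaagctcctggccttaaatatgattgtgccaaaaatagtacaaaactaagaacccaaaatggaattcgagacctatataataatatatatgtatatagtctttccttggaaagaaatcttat
Motifs were counted on both strands in a window of 300 bases, 250 before to 50 after the start, which is longer than the bases shown. TTGAC was present in 6 of the 10 members and in 50.5% of 27443 Arabidopsis promoters. ACGTG was present in 4 of 10 and in 26.7% of promoters, TGACG in 3 of 10 and in 23.1%, and CACGTG, which contains ACGTG, in 2 of 10 and in 7.7%. TTGAC and TGACG can overlap by shared bases. SAG21 held 4 TTGAC, of which 3 lie in the bases shown, and the CACGTG of NYC1 lies after its start. A match of letters describes the sequence and does not show a binding site.

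All 5 chlorophyll enzymes rose in infected wild type leaves. NYC1, which starts the removal of chlorophyll b, was at 99.2, 87.8 and 85.6 CPM in the mock libraries of experiments 1, 2 and 3 and at 177.9, 186.5 and 213.1 CPM in the Pma libraries. The groups did not overlap, and the mean went from 90.8 ± 7.32 to 192.5 ± 18.4 CPM (SD, n = 3), a log2 fold change of 1.07 ± 0.29 (SE; edgeR adjusted p = 0.00147). NYE1, the magnesium dechelatase, went from 9.79, 21.2 and 10.3 CPM to 75.8, 119.4 and 129.0 CPM, a log2 fold change of 3.01 ± 0.33 (adjusted p = 2.47e-09). It had the largest response of the 4 chlorophyll enzymes with over 10 counts in the mock group. Its paralogue NYE2 was near the limit of detection in mock leaves, with 1.96, 0 and 6.58 CPM (10 counts in all), and reached 28.5, 23.7 and 27.5 CPM (log2 fold change 3.32 ± 0.64, adjusted p = 2.84e-05). Without mock replicate 3 the wild type ratio was 26 (95% counting interval 8.71 to 127.8) on 3 mock counts.

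The enzymes that cut the tail and open the ring rose in each experiment. PPH was at 37.9, 48.3 and 28.2 CPM in mock and 138.1, 230.7 and 216.5 CPM in Pma leaves of wild type, a log2 fold change of 2.32 ± 0.28 (adjusted p = 1.22e-08). PAO, whose loss in mutants lets a phototoxic intermediate build up, was at 60.0, 52.7 and 52.7 CPM in mock and 227.9, 327.3 and 361.2 CPM in Pma leaves, a log2 fold change of 2.41 ± 0.29 (adjusted p = 1.66e-08). In both genes the lowest Pma library lay above the highest mock library of all 7 genotypes.

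Of the senescence-associated genes, SAG13 and SAG21 had the largest fitted changes in wild type. SAG13, a short-chain dehydrogenase/reductase, went from 5.22, 3.66 and 2.82 CPM in wild type mock to 1346.2, 1875.2 and 2771.4 CPM in Pma leaves, a log2 fold change of 8.92 ± 0.90 (adjusted p = 5.1e-10). SAG21, a mitochondrial late embryogenesis abundant protein also called LEA5, went from 9.14, 7.31 and 13.2 to 1971.2, 1448.9 and 1442.7 CPM, a log2 fold change of 7.37 ± 0.74 (adjusted p = 5.23e-10). DIN2, a beta-glucosidase named for its induction in darkness, had 1 count in the 3 mock libraries of wild type and 30, 4 and 21 counts in the Pma libraries, a ratio of 44.8 with a 95% counting interval of 7.71 to 1801.1 (adjusted p = 0.000217). Without mock replicate 1, which held that count, the rise was at least 9.16-fold. The late marker SAG12 had no count in wild type, mock or Pma, where 0 counts allow up to 0.617 CPM over the 3 Pma libraries. SAG29, the sugar transporter SWEET15, had 2, 0 and 1 counts in the Pma libraries of wild type. Intervals and such limits cover counting error only.

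**Figure D1:**
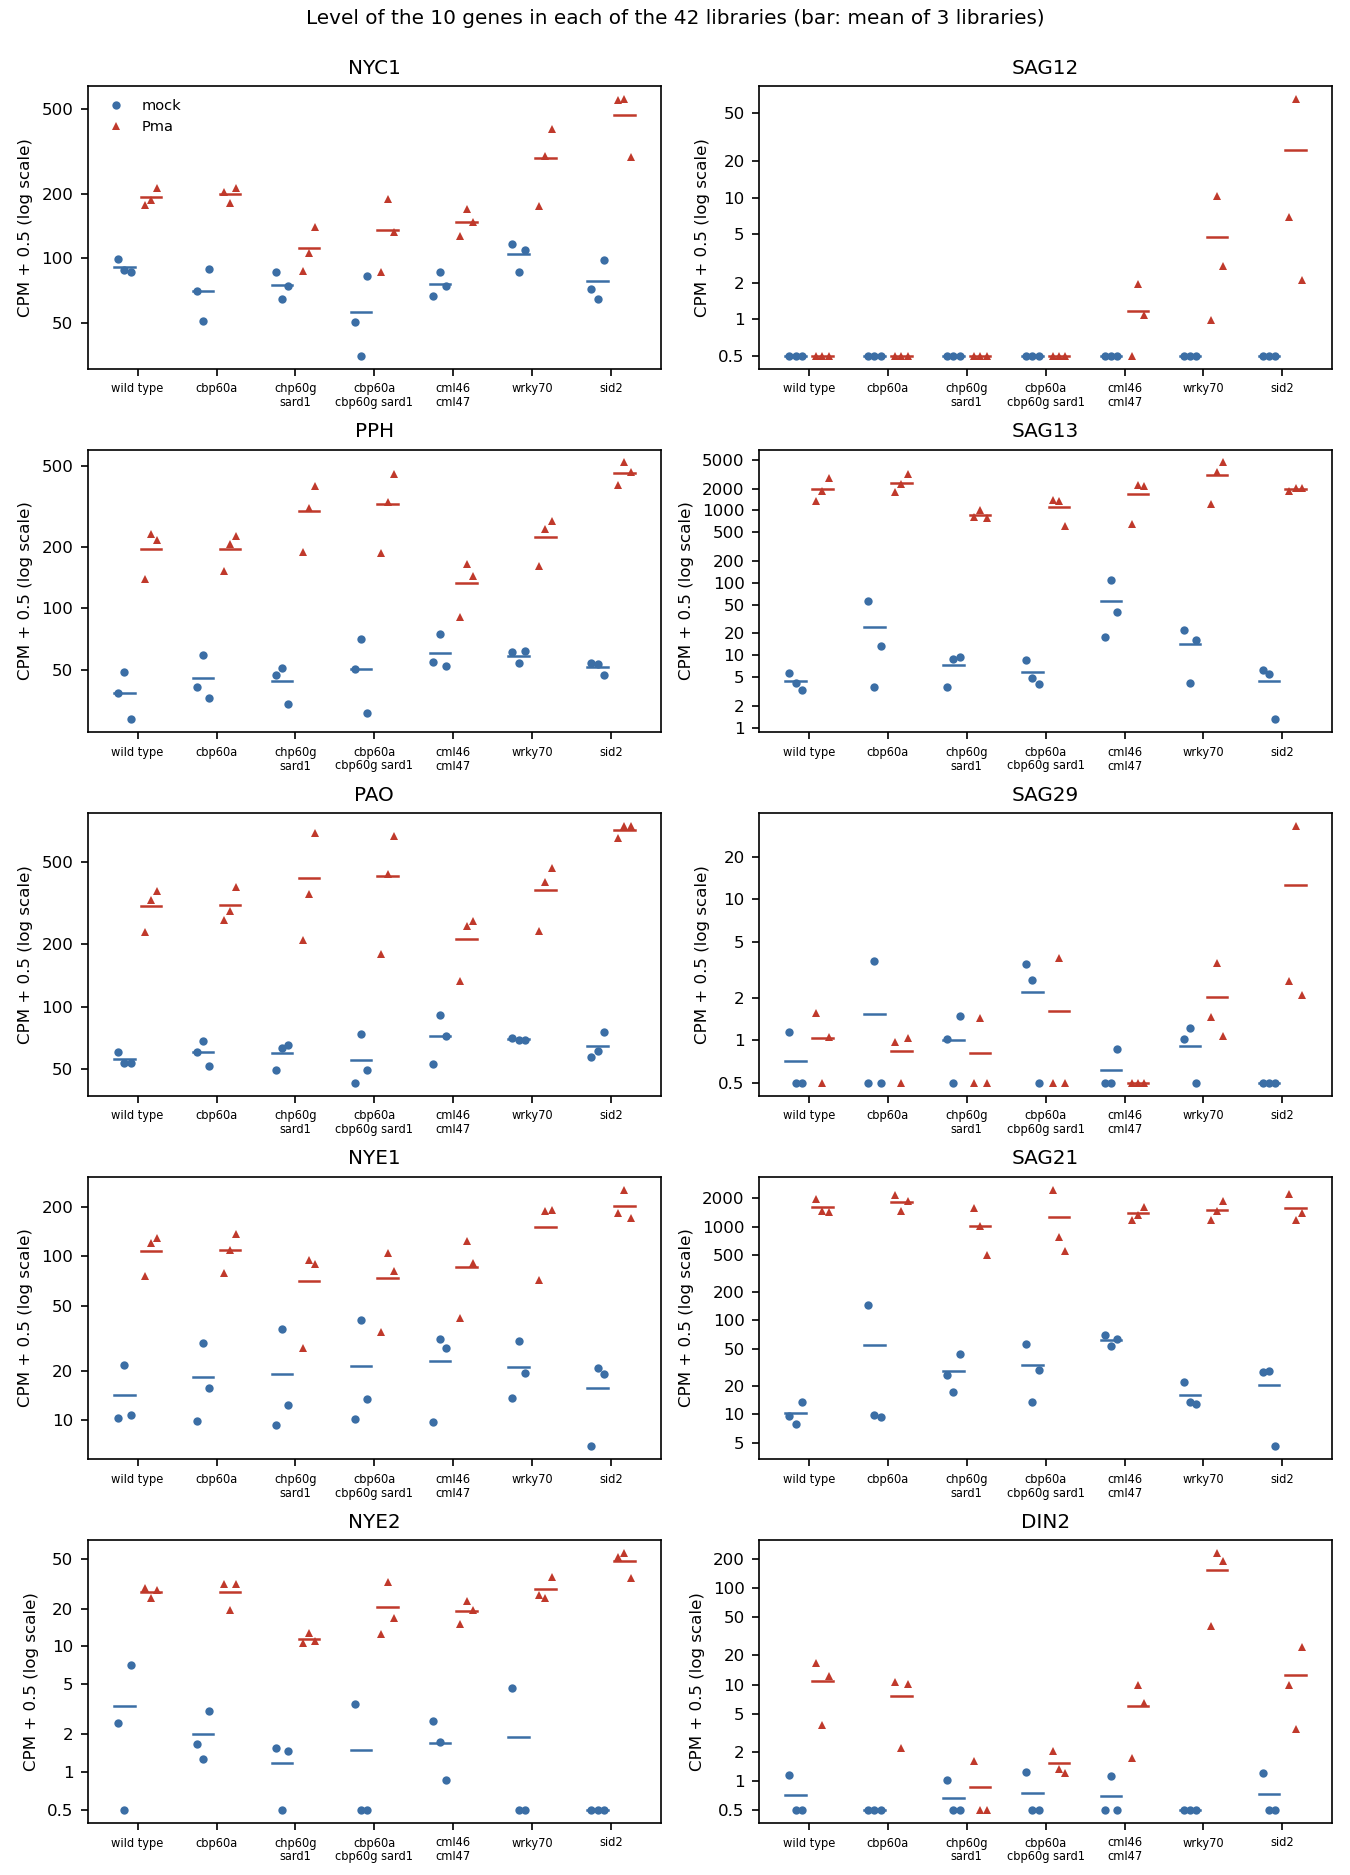
Level of each of the 10 genes in every library, as CPM + 0.5 on a log axis, by genotype, with mock libraries as blue circles, Pma libraries as red triangles and a bar at the mean of 3. SAG13, SAG21, PPH, PAO and NYE2 show no overlap between mock and Pma libraries, and the Pma libraries of sid2 hold the highest mean of NYC1, PPH, PAO, NYE1 and NYE2.

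Across the 7 genotypes the split between treatments held gene by gene. SAG13 ranged from 0.809 to 109.5 CPM (median 5.68) in the 21 mock libraries and from 600.6 to 4593.6 CPM (median 1857.6) in the 21 Pma libraries. SAG21 ranged from 4.05 to 146.0 CPM (median 21.5) in mock and from 499.1 to 2476.0 CPM (median 1448.9) in Pma libraries. NYE2 ranged from 0 to 6.58 CPM (median 0.783) and from 10.2 to 54.6 CPM (median 23.7). These genes, PPH and PAO did not overlap between treatments. For NYC1, 18 of 21 Pma libraries were above the highest mock library (116.5 CPM), and for NYE1, 19 of 21 were above 40.3 CPM. DIN2 never exceeded 0.744 CPM in mock leaves and 18 of 21 Pma libraries were above that. SAG12 passed its mock level of 0 in 8 Pma libraries, and SAG29 passed its highest mock level in 2.

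By edgeR's quasi-likelihood test with Benjamini-Hochberg adjustment, all 9 tested members but SAG12 changed in wild type, 8 of 9, where 32.3% of the 15161 genes tested rose. The same number, 8, changed in cbp60a (29.7% of all genes) and in cml46 cml47 (26.9%). In chp60g sard1 6 changed (27.8%), in cbp60a cbp60g sard1 7 (27.8%), in wrky70 9 (29.3%) and in sid2 9 (31.1%), SAG12 being 1 of the 9 in both. Each of these changes was a rise. SAG12, DIN2 and NYE2, where called, had passed the filter through infected leaves, so they lend these counts no support. The 5 chlorophyll enzymes had a median log2 fold change of 2.41 in wild type, 2.72 in chp60g sard1 and 3.48 in sid2, where the median of all tested genes lay between -0.02 and 0.0.

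The size of the response varied by genotype and by gene. NYE1 rose by log2 fold changes of 3.92 ± 0.34 in sid2, 2.82 in wrky70, 2.72 in cbp60a, 1.93 in cml46 cml47, 1.91 ± 0.32 in chp60g sard1 and 1.81 in the triple mutant (2.41 without its mock replicate 2). PPH and PAO rose most in sid2, by 3.15 ± 0.28 and 3.48 ± 0.30, and least in cml46 cml47, by 1.12 and 1.54. NYC1 rose by 2.63 ± 0.30 in sid2, 1.54 in cbp60a, 1.46 in wrky70, 1.31 in the triple mutant and 0.98 in cml46 cml47. In chp60g sard1 NYC1 was at 85.3, 64.3 and 73.7 CPM in mock and 87.0, 105.7 and 140.3 CPM in Pma leaves, with only a narrow gap between the ranges and a log2 fold change of 0.55 ± 0.29 that did not pass (adjusted p = 0.0996). It passed without mock replicate 1 of chp60g sard1 (0.83, adjusted p = 0.0401) or without experiment 1 (0.85, 0.0488). In the triple mutant the call of NYC1 was lost without experiment 2 (adjusted p = 0.0937).

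NYE2 rested on few mock counts. It was at 0 in all 3 sid2 mock libraries, so its rise there is given as at least 61.2-fold (adjusted p = 5.73e-09), and 3 mock counts in chp60g sard1 gave a ratio of 15.7 (95% counting interval 5.07 to 78.6, adjusted p = 0.00021). It rose by log2 fold changes of 4.25 in cbp60a, 4.10 in the triple mutant, 3.95 in cml46 cml47 and 4.11 in wrky70. Single libraries decided the size of these values: all mock counts lay in replicate 1 in the triple mutant and in wrky70, and without it the rises were at least 14-fold and at least 28.7-fold. The ratio without mock replicate 1 was 26 (8.63 to 128.2) in cml46 cml47 and 26.3 (4.51 to 1060.8) in chp60g sard1, and without Pma replicate 2 of the triple mutant it was 12.4 (4.53 to 47.5). As a share of the counts of both STAY-GREEN paralogues, NYE2 held 15.4% in wild type mock leaves (10 of 65 counts, 95% exact interval 7.63% to 26.5%) and 20.2% in Pma leaves (131 of 648, 17.2% to 23.5%). In sid2 it held 0 of 60 counts in mock leaves, which allows up to 5.96%, and 18.6% (16.4% to 21%) in Pma leaves. An exact permutation test (two-sided) of the log2 ratio of the paralogues over 3 and 3 libraries gave p from 0.1 to 0.9 in the 7 genotypes, where 0.1 is the smallest value possible.

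SAG13 and SAG21 rose in each genotype. SAG13 rose by log2 fold changes of 8.94 in sid2, 7.68 in wrky70, 7.63 in the triple mutant, 7.05 in chp60g sard1, 6.49 in cbp60a and 4.93 in cml46 cml47. SAG21 rose by 6.72 in wrky70, 6.27 in sid2, 5.36 in cbp60a, 5.21 in the triple mutant, 5.09 in chp60g sard1 and 4.55 in cml46 cml47. One mock library of cbp60a stood apart, replicate 1, with 56.5 CPM of SAG13 against 3.13 and 12.8 in the others and 146.0 CPM of SAG21 against 9.4 and 8.94. Without it the responses in cbp60a were 8.64 for SAG13 and 7.57 for SAG21. Without mock replicate 2 of cml46 cml47 the SAG13 response there was 5.89, and without mock replicate 1 it was 8.32 in the triple mutant and 8.27 in wrky70. The SAG21 response was 6.99 without sid2 mock replicate 2 and 5.77 without chp60g sard1 mock replicate 3.

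**Figure D2:**
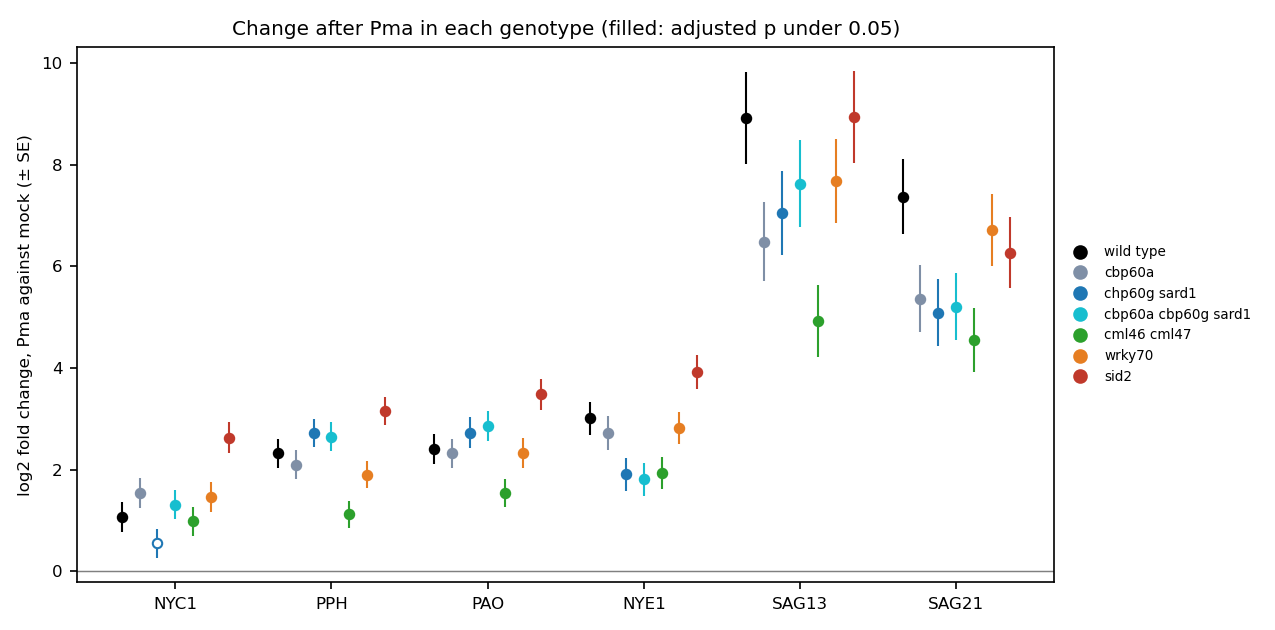
Pma against mock, log2 fold change with its standard error, for NYC1, PPH, PAO, NYE1, SAG13 and SAG21 in the 7 genotypes; filled points passed an adjusted p of 0.05. Only NYC1 in chp60g sard1 is open, and sid2 has the largest point of NYC1, PPH, PAO and NYE1.

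DIN2 and SAG12 separated the genotypes in infected leaves. DIN2 had 82, 300 and 337 counts in wrky70 Pma leaves and none in wrky70 mock leaves, at least 231.4-fold higher (adjusted p = 7.84e-11). It had 13, 4 and 45 counts in sid2 Pma leaves, 21, 2 and 18 in cbp60a and 3, 13 and 10 in cml46 cml47. It rose against 0 mock counts in cbp60a (adjusted p = 0.000525) and against 1 in sid2, a ratio of 54 (9.34 to 2166.1). The sid2 ratio was 24.8 (3.89 to 1038.0) without Pma replicate 3, and the rise was at least 11.7-fold without mock replicate 1. In cml46 cml47 the counting interval of the ratio was 4.92 to 1228.3, and the call (adjusted p = 0.00152) was lost without experiment 3 (0.0556). There the ratio was 47.3 (7.67 to 1946.9) without Pma replicate 1, 16.9 (2.78 to 694.1) without mock replicate 3, and at least 7.44-fold without mock replicate 2. In chp60g sard1 the Pma libraries held 2, 0 and 0 counts and in the triple mutant 3, 1 and 1, and neither rise passed; the ratio in the triple mutant was 3.96 (0.443 to 187.2).

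SAG12 counts came from few libraries. Of its 121 counts, 9, 88 and 3 were in the sid2 Pma libraries and 1, 13 and 4 in the wrky70 Pma libraries, with 3 in cml46 cml47 and none elsewhere. Against their mock libraries at 0 this was at least 29-fold higher in sid2 and at least 5.79-fold in wrky70. Without Pma replicate 2 these bounds became 4.93 and 2.16. edgeR called both and DESeq2 neither, but the compared libraries are those that carried SAG12 past the filter, and without experiment 2 it did not pass and had no fit. SAG29 had most of its counts in that same sid2 library: its sid2 Pma counts were 3, 44 and 3, against 0 in sid2 mock leaves, at least 14.5-fold higher with no test.

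**Figure D3:**
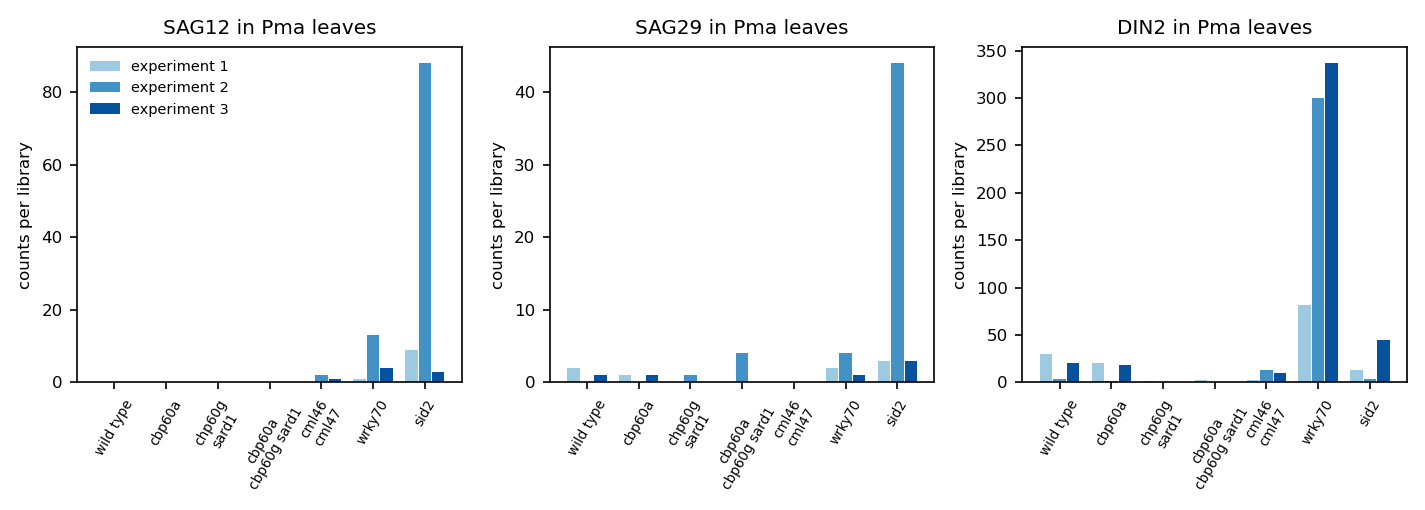
Raw counts of SAG12, SAG29 and DIN2 in each Pma library by genotype, one bar per experiment. Replicate 2 of sid2 holds 88 of the SAG12 and 44 of the SAG29 counts, and DIN2 is highest in the 3 wrky70 libraries.

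Mutants were next set against wild type within infected leaves. Such a difference in level does not show that a transcript depends on the mutated gene. In sid2, mutated in isochorismate synthase, 5 members were called higher and none lower, 1 of the 5 being SAG12 (8.89% of all genes were called higher). These same sid2 leaves helped carry SAG12 past the filter, so its call lends that count no support. NYC1 was at 550.8, 556.9 and 297.6 CPM in sid2 and at most 213.1 CPM in wild type, a log2 difference of 1.31 ± 0.28 (adjusted p = 0.00206). PPH was at 399.4, 517.1 and 464.6 CPM in sid2, above all wild type libraries, a difference of 1.26 ± 0.26 (adjusted p = 0.00153). PAO was at 648.0, 741.3 and 740.9 CPM in sid2, a difference of 1.25 ± 0.28 (adjusted p = 0.00256). All 3 were higher in sid2 in each experiment, and the groups did not overlap. Without experiment 2 their adjusted p were 0.0756, 0.0769 and 0.0974.

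NYE1 in sid2 reached 183.6, 255.2 and 171.8 CPM, above all 3 wild type libraries, a difference of 0.97 ± 0.29 (adjusted p = 0.0212). This call was lost without the experiment block (0.348), without sid2 Pma replicate 1 (0.56, adjusted p = 0.239) and without wild type Pma replicate 2 (0.77, adjusted p = 0.126) or 3 (0.0531), and also without experiment 1 (0.137) or 2 (0.159). NYE2 was at 51.4, 54.6 and 34.8 CPM in sid2, with a difference of 0.82 ± 0.47 that did not pass (adjusted p = 0.263). SAG12 was at least 35.1-fold higher in sid2 than in wild type, and at least 5.96-fold without sid2 Pma replicate 2, as a description. DESeq2 called 4 members higher, SAG12 not among them. SAG29 had a ratio of 17.5 (5.67 to 87.9) with no test, and 2.98 (0.636 to 18.4) without that library. SAG13, SAG21 and DIN2 differed by log2 values of 0.00 ± 0.62, -0.07 ± 0.54 and 0.12 ± 0.63 and did not pass. The mesophyll markers summed to 2566.3 to 7074.5 CPM in sid2 and 1918.5 to 2471.9 CPM in wild type Pma leaves, and 2 of the 4 were higher by the same test. Guard cell markers summed to 115.7 to 156.4 CPM in sid2 against 105.9 to 147.3, phloem markers to 711.6 to 777.8 against 619.3 to 717.4, and epidermal markers to 11.4 to 50.9 against 14.6 to 22.9, with none of these called. The part of these markers in the difference was not tested.

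In chp60g sard1, mutated in a pair of factors known to switch on salicylic acid synthesis genes, 1 member passed. DIN2 was 26.1-fold lower (6.89 to 220.9) than in wild type (adjusted p = 0.00252), where 4.21% of all genes were called lower. Its call was lost without chp60g sard1 Pma replicate 3 (ratio 16, 4.22 to 135.3, adjusted p = 0.0523) and without experiment 3 (0.115), and without Pma replicate 1 it was at least 10.7-fold lower. NYC1, NYE1 and NYE2 had log2 differences of -0.80 ± 0.28, -0.77 ± 0.29 and -1.28 ± 0.52 (adjusted p = 0.0552, 0.0804 and 0.103). NYE1 passed without wild type Pma replicate 2 (-0.97, 0.048). NYE2 was at 10.2, 12.3 and 10.6 CPM in these leaves, below all wild type libraries, and passed in a fit of the Pma libraries alone (adjusted p = 0.0117). PPH and PAO had differences of 0.61 ± 0.26 and 0.38 ± 0.27 (adjusted p = 0.121 and 0.407), and PPH passed in that same fit (0.0401). The spread between experiments was wide: PAO was at 209.7, 350.3 and 682.9 CPM in experiments 1, 2 and 3. SAG13 and SAG21 differed by -1.19 ± 0.60 (adjusted p = 0.208) and -0.73. Mesophyll markers summed to 3787.9 to 8330.9 CPM here and 3 of the 4 were higher than in wild type. Guard cell markers summed to 59.9 to 76 CPM, below the wild type range of 105.9 to 147.3, with 1 called lower, and phloem markers to 718.5 to 1031.6 CPM, above the wild type range of 619.3 to 717.4, with none called. Epidermal markers summed to 18.1 to 54.8 CPM. The part of these markers in the member differences was not tested.

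The triple mutant gave 1 lower member (3.1% of all genes called lower), DIN2, with a log2 difference of -3.19 ± 0.88 (adjusted p = 0.0135). It was lost without wild type Pma replicate 1 (-2.46, adjusted p = 0.146), without triple mutant Pma replicate 3 (-2.81, 0.137), without experiment 1 (0.0814) or 3 (0.246) and with DESeq2 (0.0976), and was -3.81 without triple mutant Pma replicate 1. PPH, higher by 0.72 without passing (0.0717), passed in the fit of the Pma libraries alone (0.0207), with DESeq2 (0.0497) and without triple mutant Pma replicate 1 (0.94, 0.018). NYC1 varied from 85.9 to 188.3 CPM and PAO from 179.1 to 662.1 CPM between its Pma libraries. Against chp60g sard1 Pma leaves, edgeR called 0 members in the triple mutant (0.0066% of all genes), with 0 at an unadjusted p below 0.05 and 0 by DESeq2.

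In wrky70, 1 member was higher than in wild type (1.75% of all genes called higher). DIN2 was at 39.8, 228.8 and 190.7 CPM against 16.1, 3.27 and 11.8 CPM, a log2 difference of 3.83 ± 0.62 (adjusted p = 0.000259). It was 2.82 without experiment 2 (adjusted p = 0.121), 4.47 without wild type Pma replicate 1, and 4.56 or 3.01 without wrky70 Pma replicate 1 or 2. SAG12 was at least 5.68-fold higher and was not called. In cbp60a, edgeR called 0 members (0.0% of all genes), with 0 at an unadjusted p below 0.05 and 0 by DESeq2, and in cml46 cml47 it called 0 (0.125%), with 1 at an unadjusted p below 0.05 and 0 by DESeq2. For DIN2, NYE2 and SAG12 in cml46 cml47, DESeq2 gave no adjusted p.

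**Figure D4:**
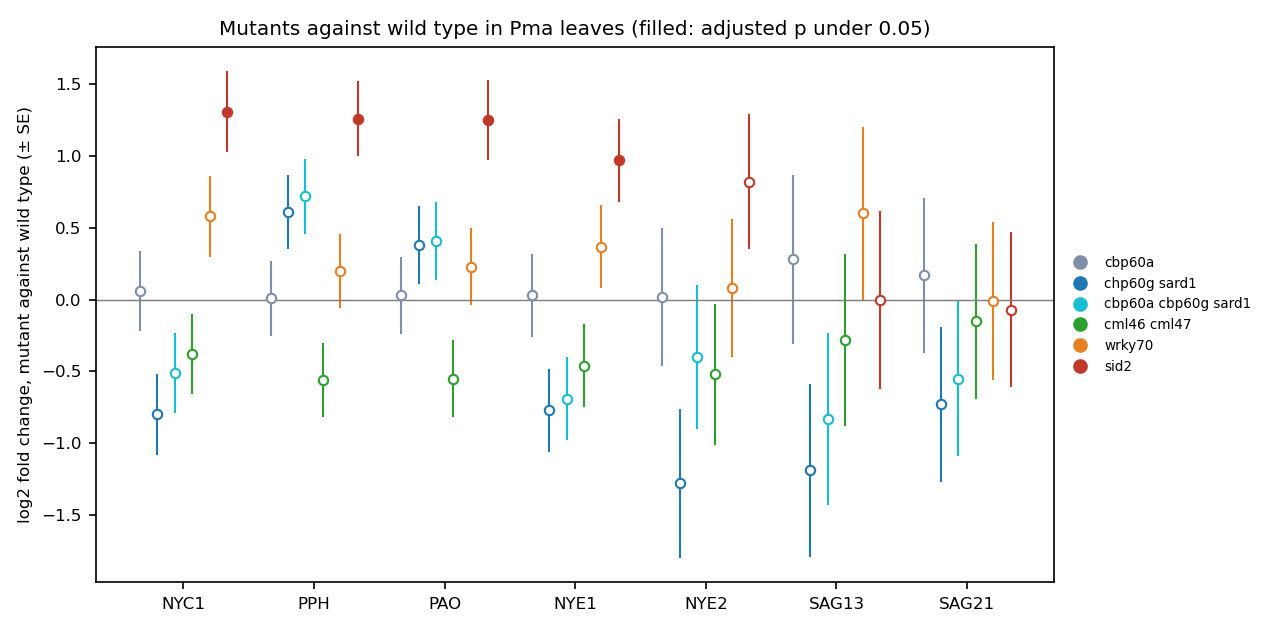
Each mutant against wild type in Pma leaves, log2 difference with its standard error, for NYC1, PPH, PAO, NYE1, NYE2, SAG13 and SAG21; filled points passed an adjusted p of 0.05. Only NYC1, PPH, PAO and NYE1 in sid2 are filled.

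Mutants were also compared with each other in Pma leaves. Between chp60g sard1 and sid2, both mutated in genes of salicylic acid supply, 5 members were called lower in chp60g sard1, SAG12 being 1 of them (3.78% of all genes called lower). The SAG12 and DIN2 calls lend that count no support, as their sid2 counts helped them past the filter. NYC1 was lower by a log2 difference of -2.12 ± 0.29 (adjusted p = 1.36e-05) and NYE1 by -1.73 ± 0.30 (0.000297), the latter not without the experiment block (0.154). NYE2 was lower by -2.09 ± 0.51 (0.00879), a call lost without sid2 Pma replicate 2 (0.0569), chp60g sard1 Pma replicate 1 (0.0626) or experiment 2 (0.134). DIN2 was 31-fold lower (8.22 to 261.4, adjusted p = 0.00308), and 14.2-fold (3.38 to 127.1, adjusted p = 0.0503) without sid2 Pma replicate 3. It was lost without experiment 3 (0.252), was 19-fold (5.03 to 160.1, adjusted p = 0.0443) without chp60g sard1 Pma replicate 3 and at least 12.7-fold lower without chp60g sard1 Pma replicate 1. SAG12 was at least 33.3-fold lower, and at least 5.65-fold without sid2 Pma replicate 2. PAO and PPH differed by -0.87 ± 0.27 and -0.65 ± 0.26 and did not pass (adjusted p = 0.0516 and 0.141). PAO passed with RLE factors (0.0499), in the fit of the Pma libraries alone (0.0354), with DESeq2 (0.0321), without experiment 3 (0.0147) and without chp60g sard1 Pma replicate 3 (-1.30, 0.00599). PPH passed in the fit of the Pma libraries alone (0.0246) and without experiment 3 (0.0452).

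Between wrky70 and sid2, 3 members passed (8.98% of all genes). DIN2 was higher in wrky70 by 3.71 ± 0.60 (adjusted p = 5.23e-05), by 2.92 without wrky70 Pma replicate 2, by 4.35 without wrky70 Pma replicate 1 and by 4.58 without sid2 Pma replicate 3. PPH and PAO were lower by -1.05 ± 0.26 (0.00796) and -1.02 ± 0.27 (0.0157). PPH was lost without experiment 2 (0.219). PAO was lost without the experiment block (0.121), without experiment 1 (0.0624) or 2 (0.234), without wrky70 Pma replicate 1 (0.0735) or 2 (0.051) and without sid2 Pma replicate 1 (0.0739). NYC1, at -0.73 (0.101), passed without experiment 3 (0.0322) and without sid2 Pma replicate 3 (-1.05, 0.0184).

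The order of the group means was in part a matter of overlap. sid2 Pma leaves ranked first of the 14 groups for NYC1, NYE1, NYE2, PPH, PAO, SAG12 and SAG29, wrky70 Pma leaves for SAG13 and DIN2, and cbp60a Pma leaves for SAG21. Among the 7 Pma groups, neighbours in the order had ranges that overlapped, apart from wrky70 above sid2 for DIN2, wild type above cml46 cml47 for NYC1 and cml46 cml47 above chp60g sard1 for NYE2.

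In uninfected leaves few members passed. In cml46 cml47 mock leaves 2 members were higher than in wild type (3.83% of all genes called higher). SAG13 was at 17.3, 109.5 and 39.6 CPM, above all wild type mock libraries, a log2 difference of 3.70 ± 0.81 (adjusted p = 0.00499) that was 2.76 without cml46 cml47 mock replicate 2 (0.0616) and was lost without experiment 2 (0.2) or 3 (0.156). SAG21 was at 69.4, 52.6 and 63.2 CPM, a difference of 2.67 ± 0.66 (0.0128), lost without the experiment block (0.0537), experiment 2 (0.194) or 3 (0.0807), wild type mock replicate 1 (0.095) or 2 (0.0524), or cml46 cml47 mock replicate 3 (0.0644). PPH passed in the fit of the mock libraries alone (0.69, 0.0179). In the other mutants edgeR called 0 members in mock leaves. Counts at an unadjusted p below 0.05 and by DESeq2 were 2 and 1 in cbp60a (0.185% of all genes called), 1 and 0 in chp60g sard1 (0.462%), 2 and 0 in the triple mutant (0.0%), 2 and 0 in wrky70 (0.0594%), and 1 and 0 in sid2 (0.0132%). In cbp60a SAG13 differed by 2.7 ± 0.83 (adjusted p = 0.157) and SAG21 by 2.19 (0.152), with the high library named above. Without cbp60a mock replicate 2 both passed (0.035 and 0.0475), and without replicate 3 SAG21 did (0.0296).

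Whether the response itself differed from wild type was tested as an interaction. In sid2, NYC1 rose by 1.56 ± 0.40 more on the log2 scale than in wild type (adjusted p = 0.0418), 1 member where 0.824% of all genes were called higher. The call was lost without the experiment block (0.126) and in nearly all fits that left out a library or experiment. Elsewhere edgeR called 0 members. Counts at an unadjusted p below 0.05 and by DESeq2 were 2 and 0 in cbp60a (0.0% of all genes), 2 and 0 in chp60g sard1 (6.81%), 2 and 0 in the triple mutant (3.88%), 5 and 2 in cml46 cml47 (0.574%) and 0 and 0 in wrky70 (0.112%). The nearest was SAG13 in cml46 cml47, with a difference of -3.98 ± 1.01 (0.0551), which passed without the filter (0.0407), with DESeq2 (0.0159), without experiment 1 (0.017), and without cml46 cml47 mock replicate 1 (0.0239) or Pma replicate 3 (0.0365). No difference in response is given for genes whose mock groups were at 0.

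A joint test over the 7 genotypes found 7 of 9 members to differ in Pma leaves, where 33.4% of all genes did: DIN2 (adjusted p = 5.42e-12), NYC1 (1.95e-06), PPH (2.64e-05), NYE1 (6.4e-05), PAO (0.000162), NYE2 (0.0344) and SAG12. SAG13 was at 0.184 and did not pass, nor did SAG21. SAG13 passed in the fit of the Pma libraries alone (0.0433) and without experiment 1 (0.0141). NYE1 was lost without the experiment block (0.202), PAO without experiment 2 (0.0613) and SAG12 with DESeq2. SAG12 and DIN2 had passed the filter through Pma leaves compared here in which they were high, so their calls lend the 7 of 9 no support. NYE2 was lost without the block (0.122), without experiment 1, 2 or 3 (0.129, 0.131 and 0.165), without sid2 Pma replicate 1 (0.0889) or 2 (0.148) and without chp60g sard1 Pma replicate 1 (0.0966), 2 (0.0578) or 3 (0.0798). In mock leaves 1 of 9 differed, SAG13 (0.00169), against 3.93% of all genes, and it was lost without experiment 2 (0.162) or 3 (0.155). SAG21, at 0.0632, passed with no filter (0.037), in the fit of the mock libraries alone (0.0308), with DESeq2 (0.0151) and in several fits that left out a library or experiment. For the response, 5 of 9 differed (11.2% of all genes): PPH, NYE1, NYC1, PAO and SAG13, all 5 lost without experiment 2 and all but NYC1 without the block. NYC1 and NYE1 were also lost without experiment 1 (0.204 and 0.107), and PAO and SAG13 without experiment 3 (0.112 and 0.332). SAG13, PAO and NYC1 were lost in some fits without a single library as well.

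The rest of the pathway did not move as one. Of 11 other genes of chlorophyll breakdown, 5 rose and 5 fell in infected wild type leaves (median log2 fold change -0.65), where 32.3% of all tested genes rose and 34.0% fell. CYP89A9, a cytochrome P450 that shapes the late catabolites, rose by 4.17 ± 0.46, and MES16, which demethylates them, by 2.4 ± 0.42. The chlorophyllase CLH1 rose by 3.34 ± 0.58, from 52.0 to 621.8 CPM. ACD2, the reductase that acts directly after PAO, fell by 2.19 on the log2 scale. SGRL, a STAY-GREEN-like protein, fell by 3.76 and BCM1, a thylakoid protein that balances chlorophyll metabolism, fell by 3.63. Of 24 genes of chlorophyll synthesis, 23 fell and none rose (median -4.08), against the same 34.0% and 32.3% of all genes. HEMA1, which makes the first committed precursor, fell from 787.2 to 92.3 CPM, a log2 fold change of -3.09 ± 0.27, CHLG, chlorophyll synthase, changed by -4.29 ± 0.37, CHLD, a magnesium chelatase subunit, by -2.99 ± 0.28 and DVR, the divinyl reductase, by -6.95 ± 0.71.

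Of 14 tested regulators of chlorophyll breakdown among 16 listed, 8 rose and 3 fell in wild type (median 1.94), where 32.3% of all genes rose and 34.0% fell. The NAC factor ANAC019 rose by 8.08 ± 0.60, and ORE1 and ANAC046, NAC factors of leaf ageing, were at least 131.7-fold and at least 25.2-fold higher. PIF4, a light-signalling bHLH factor, fell by 3.35. Of 20 other senescence-associated genes, 17 rose and 1 fell (median 3.04), against those same shares. These medians were the same with genes absent from mock leaves set at their bound. SAG15, a chloroplast Clp protease subunit, rose by 4.37 ± 0.36, SAG20 by 3.53 ± 0.32 and DIN11, a dioxygenase, by 6.26 ± 1.22. WRKY75 and SRG1 were at least 252.8-fold and at least 57.6-fold higher.

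The same lists were counted in infected sid2 and chp60g sard1 leaves. Of all tested genes, 8.89% were higher and 5.62% lower in sid2, and 8.88% were higher and 4.21% lower in chp60g sard1. Against wild type Pma leaves, 4 of the 11 other breakdown genes were higher in sid2 and none lower (median 0.93), and in chp60g sard1 4 were higher and 1 lower (median 0.23). CLH1 was higher in both, by 2.21 ± 0.54 in sid2 (adjusted p = 0.00583) and 2.22 ± 0.54 in chp60g sard1 (0.00538), whereas MES16 was lower in chp60g sard1 (-1.58 ± 0.39, 0.00538) and differed by 0.57 in sid2 without passing. Of the 24 synthesis genes, 4 were higher and 2 lower in sid2 (median 0.58), and 8 were higher and none lower in chp60g sard1 (median 1.04). HEMA1 was higher in both, by 1.19 (0.00222) and 1.28 (0.000935), and so was HEMD, uroporphyrinogen synthase, by 0.9 (0.0243) and 1.1 (0.00622). Of the 14 regulators, 1 was higher in sid2, and 2 were higher and 2 lower in chp60g sard1, where ORE1 was lower by -1.43 ± 0.44 (0.0237). Of the 20 other senescence-associated genes, 3 were higher and 2 lower in sid2, DIN11 among the former (3.33 ± 0.63, 0.000476), and 1 was higher and 4 lower in chp60g sard1, SRG1 among the latter (-3.79 ± 0.50, 2.36e-06). The differences between the mutants or between the lists were not tested here.

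Each member was matched to the tested genes with the nearest pattern, by the root mean square difference of centred log2 group means over the 14 groups among 7065 genes. The nearest were ASPGB1 (0.21) and UGT85A7 (0.22) to NYC1, DELTA-OAT (0.21) and SDH1-1 (0.24) to NYE1, PES1 (0.35) and AtS40-3 (0.37) to NYE2, A/N-InvC (0.2) and TOM1 (0.22) to PPH, and DREB2A (0.21) and HIPP21 (0.23) to PAO. ALD1 (0.36) and GPT2 (0.43) were nearest to SAG13, GSTF6 (0.37) and HSF4 (0.42) to SAG21, SUC7 (0.64) and GLYI4 (0.68) to DIN2, and CLE44 (0.36) and ORS1 (0.41) to SAG12. These distances describe the 14 group means, which share their libraries.

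Related or overlapping loci could share tags with a member. The last 500 bases of SAG29, NYC1, PPH, PAO and NYE1 had no similar stretch elsewhere on the nuclear chromosomes, which were searched whole. SAG13 had a relative at 79.4% identity over 170 bases (AT2G29160), SAG21 one at 78.6% over 182 (LEA3), DIN2 one at 75.9% over 166 (BGLU32), NYE2 one at 75.1% over 217 (AT4G11911) and SAG12 one at 68.0% over 172. AT2G29160 is not among the loci counted, so its level could not be set beside SAG13. While SAG13 rose in wild type, its neighbours AT2G29340 and AT2G29360 fell by 1.28 and 2.23 on the log2 scale, and while SAG21 rose LEA3 fell by 3.88. AT4G11911, the relative of NYE2, had 1135 counts in all against 901 of NYE2, and was at 0.218 CPM in mock and 1.09 CPM in Pma leaves of wild type. Most of its counts therefore lay in the mutants, whose levels of it are not given here. Whether NYE2 shared tags with it in those libraries was not tested. BGLU32 had 3 counts in all, and AT3G44870, which overlaps PAO on the same strand, had 56 in all and none in wild type.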

How the data were processed

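Smart-3SEQ libraries from total leaf RNA were deposited as 1 table of raw read counts per locus. Per the labels' protocols the first 5 bases of a read were a molecular identifier and 8 bases were trimmed. The submitters' processing notes name bcl2fastq 2.17.1.14, STAR 2.4.2a and TAIR10. Whether the authors collapsed identifiers or counted by strand is not given in the sources used here, so antisense loci cannot be told apart. Of 24843 loci, 164 had no count and 24701 matched the TAIR10.1 reference.

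edgeR 4.0.16 (R 4.3.3) was run on the counts as deposited: filtering by expression (minimum count 10, total 15), which left 15161 genes, TMM factors, 1 quasi-likelihood fit of all 42 libraries with 14 groups and the experiment as a block (26 residual degrees of freedom), and Benjamini-Hochberg adjustment over all genes tested, called at 0.05. SE is the log2 fold change over the root of F. Fitted fold changes kept edgeR's default prior count. A prior count of 2 was used for the log2 CPM behind the residual correlations and the pattern matches. For groups at 0, folds are bounds against 3 counts over the group; with 1 to 3 counts a ratio has an exact 95% counting interval. The alternatives were DESeq2 1.42.0, other size factors (RLE), no filter, no block, libraries of 1 treatment alone, and leaving out each experiment or library. DESeq2 gave no adjusted p for 20 member results, all of SAG12, DIN2 or NYE2, and these were counted as not called. The fit was tried on simulated data with the same spread for every gene and changes only in genes well above the limit of detection. That trial does not cover members with few counts.

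The block rests on the design text, by which a replicate number is a shared experiment. Residuals of libraries of the same experiment correlated on average at 0.372, 0.351 and 0.133 for experiments 1, 2 and 3 (91 pairs each), against -0.167 between experiments (588 pairs). Replicate libraries differed by more than sampling noise in all 42 pairs (chi-square over degrees of freedom 3.38 to 38.5), so none was counted as a duplicate. Whether the 3 experiments used separate plantings is not given, and p-values measure the spread between these samples.

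The members and the lists of other genes were chosen with earlier results of these data known. All members were named whatever their p. From each list the 4 genes with the lowest adjusted p in the wild type response and up to 2 with the lowest in the test of genotype in Pma leaves were named. Similar 3′ ends were sought with blastn 2.17.0+. Python 3.11.15, pandas 2.3.3, numpy 2.4.6, scipy 1.17.1 and matplotlib 3.10.9 were used for summaries and figures.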

Additional observations from a re-analysis of the deposited data

Results flagged for a closer look

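Genotypes differed in how strongly some of the members answered Pma, by tests of the difference itself. NYC1, the chlorophyll b reductase, rose by 1.56 more on the log2 scale in sid2 than in wild type. Its level in Pma leaves, which is not the response, was higher in sid2 in 3 of 3 experiments. The difference in response was lost without the experiment block (edgeR adjusted p = 0.126) and in nearly all fits that left out a library or experiment. In the joint test over 7 genotypes the response differed for PPH (adjusted p = 0.00617), NYE1 (0.00785), NYC1 (0.0145), PAO (0.0264) and SAG13 (0.039), by edgeR. All of these calls were lost without experiment 2, and all but NYC1 without the block. NYC1 and NYE1 were also lost without experiment 1 (0.204 and 0.107), and PAO and SAG13 without experiment 3 (0.112 and 0.332). Leaving out a single library lost SAG13 in many fits, PAO in several, and NYC1 without sid2 mock replicate 2 (0.0688). The 4 chlorophyll enzymes had their largest responses in sid2, but of these only NYC1 passed in the sid2 difference in response. PPH, PAO and SAG13 had their smallest responses in cml46 cml47. Mock levels of SAG13 there were 17.3 to 109.5 CPM against 2.82 to 5.22 CPM in wild type.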

How the results depend on the processing

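Of 87 member results that passed, all 87 passed with RLE factors and without the filter, 81 with DESeq2, 74 without the replicate block and 61 in every available fit that left out a library or experiment. SAG12 had no fit without experiment 2, and its results were counted over the fits it had. None of the 87 that have a direction turned it in these fits, and the joint tests among them have none. Values that did not pass could change sign when a library was left out, such as DIN2 in sid2 against wild type Pma leaves (-0.75 to 0.81) and PAO in chp60g sard1 against wild type (-0.05 to 0.62). Without the replicate block the members called were 1 for any difference in response, 0 for the sid2 difference in response, 1 for cml46 cml47 mock leaves and 3 for chp60g sard1 against sid2. DESeq2 called 2 for any mock difference, 2 for the cml46 cml47 and 2 for the sid2 difference in response, and 1 in cbp60a mock leaves. With no filter the numbers were 2 for any mock difference, 1 for the cml46 cml47 difference in response and 5 for wrky70 against sid2. In fits of 1 treatment they were 3 for any mock difference, 3 for chp60g sard1 against wild type and 2 for the triple mutant. Leaving out 1 library or experiment gave 0 to 6 members for any difference in response, 4 to 7 for any Pma difference, 0 to 2 for any mock difference, 0 to 5 for sid2 against wild type in Pma leaves, 0 to 2 for chp60g sard1 and for the triple mutant, 0 to 1 for wrky70, 3 to 6 for chp60g sard1 against sid2 and 1 to 5 for wrky70 against sid2. The range was 0 to 2 in cbp60a and in cml46 cml47 mock leaves, and 0 to 1 for the sid2 and cml46 cml47 differences in response. The causes were not tested, apart from fewer samples in the fits that leave some out. Depth limited SAG12, SAG29, DIN2 and NYE2, whose low groups held 0 to 10 counts.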
